A study of Mus musculus with 10 samples.

Results

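Glycolytic enzyme genes were followed in the gonadal soma of single female mouse embryos whose mothers were given or denied vitamin C. The set comprised 10 genes fixed by name: the hexokinases Hk1 and Hk2, the phosphofructokinases Pfkl, Pfkm and Pfkp, and Aldoa, Tpi1, Pgk1, Eno1 and Ldha. A row was found for 9 of the 10 among 13578 genes, and Eno1 was not analysed here because no row carried its symbol. All embryos were Gulo-/- on a C57BL/6 background, so they could not make vitamin C themselves, and all were taken at embryonic day 13.5. The diet of the colony either supplied physiological vitamin C (n = 5 embryos) or had it withdrawn (n = 5 embryos) over the first 2 weeks of gestation. RNA came from sorted Oct4- cells, that is, from the gonad without the cells carrying the germ cell factor Oct4. Expression is given as regularised log2 (rlog) values, a scale that pulls weakly expressed genes towards their mean over the samples and so understates their differences. Depth is unknown for these libraries, and values come without counting intervals. Throughout, a change is withdrawn minus supplied, ± is the SD over the 5 embryos of a group, and adjusted p-values are Benjamini-Hochberg values of limma over all 13578 genes.

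Glycolysis splits glucose into pyruvate in the cytosol and yields ATP without oxygen, and lactate dehydrogenase turns the pyruvate into lactate. Its pace is set mainly where hexokinase traps glucose and where phosphofructokinase commits the sugar to breakdown, and these steps have several isoforms, whereas most later steps rest on a main isoform in most tissues. Many of these genes are targets of the hypoxia-inducible factor HIF, whose own breakdown is started by prolyl hydroxylases, iron enzymes of the family for which vitamin C serves as a cofactor. The comparison therefore asks whether the transcripts of the pathway differed when the vitamin was missing.

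Promoter stretches are shown for Aldoa, Pgk1 and Ldha, whose correlations among themselves over the 10 embryos were above 0.5. They are also shown for Hk2 and Pfkm, which had no correlation above 0.5 with another member over the 10 embryos. Each line holds the 160 bases before a transcription start, 5′ to 3′ on the gene's strand, from RefSeq on GRCm38.p6. Capitals mark ACGTG or GCGTG on either strand (read as CACGT or CACGC on the other), the core letters of the site that HIF binds; a CACGTG counts on both strands. Only starts whose window touched no annotated exon and held a match are shown, for Ldha the one with more matches, so the presence of a match in these lines was fixed by that choice.
Aldoa, chr7:126799255-126799414, minus strand: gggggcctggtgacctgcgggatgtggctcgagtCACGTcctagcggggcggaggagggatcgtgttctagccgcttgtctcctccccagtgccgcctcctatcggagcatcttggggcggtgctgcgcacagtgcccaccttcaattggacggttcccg
Pgk1, chrX:106186940-106187099, plus strand: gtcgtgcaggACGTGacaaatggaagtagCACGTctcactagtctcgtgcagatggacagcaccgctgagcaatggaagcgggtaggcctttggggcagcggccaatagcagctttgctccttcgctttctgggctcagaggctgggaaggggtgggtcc
Ldha, chr7:46845644-46845803, plus strand: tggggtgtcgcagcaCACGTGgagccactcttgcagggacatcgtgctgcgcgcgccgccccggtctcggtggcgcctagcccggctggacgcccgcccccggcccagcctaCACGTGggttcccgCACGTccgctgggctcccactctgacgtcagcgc
Hk2, chr6:82774455-82774614, minus strand: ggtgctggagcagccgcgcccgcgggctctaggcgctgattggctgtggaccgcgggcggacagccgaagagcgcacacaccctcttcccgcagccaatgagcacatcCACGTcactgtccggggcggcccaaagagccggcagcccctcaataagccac
Pfkm, chr15:98092429-98092588, plus strand: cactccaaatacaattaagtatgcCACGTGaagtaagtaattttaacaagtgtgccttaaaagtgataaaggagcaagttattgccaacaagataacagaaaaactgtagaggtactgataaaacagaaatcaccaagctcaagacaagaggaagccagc

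These letters are common near starts. One or the other motif lay in 15 of the 19 windows of 300 bases that RefSeq gives for the 10 members, Eno1 included, with no match for Tpi1. It lay in 61.3% of 12292 such windows of the table's genes and in 43.8% of all 32851 windows. Windows of 1 gene can overlap, and a match describes the letters only.

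No member passed the test when vitamin C was withdrawn. By limma, 0 of 9 members had an adjusted p under 0.05, where 0.0221% of all genes passed, and the smallest adjusted p of a member was 0.931. At an unadjusted p under 0.05 there was 1 member, Tpi1, against 5.30% of all genes. In 0 of the 9 did the groups not overlap, against 0.810% of all genes. The change was below 0 in 6 members and above 0 in 3, where 49.8% of all genes were below 0. The median change of the 9 was -0.017, beside 0.00021 over all genes, and the members ranged from -0.077 for Pfkp to 0.092 for Tpi1. The 95% intervals of the 9 changes reached no further than 0.203 from 0, so larger shifts lay outside the intervals of these enzymes.

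**Figure D1:**
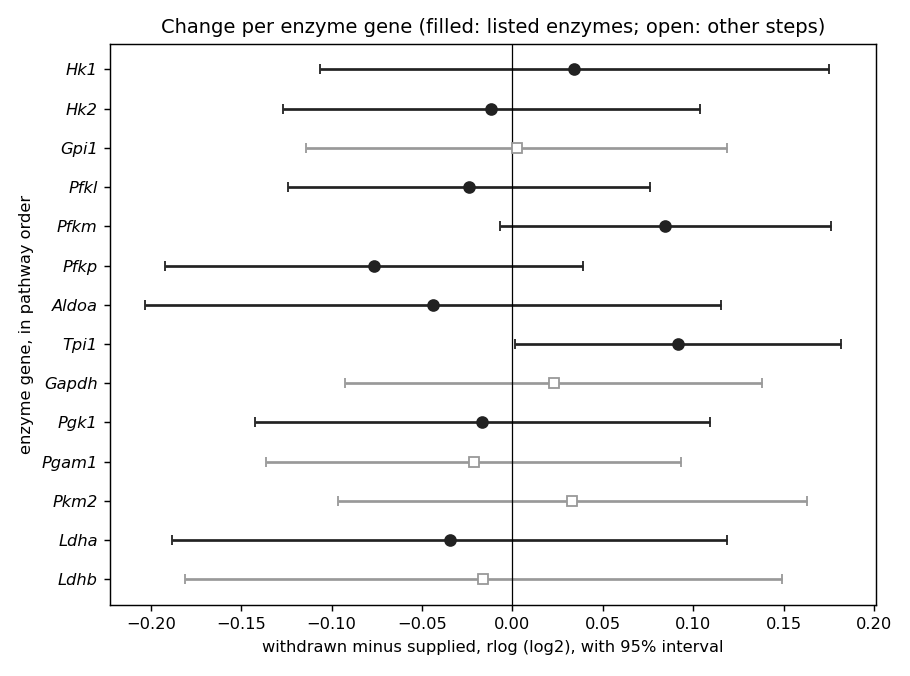
Change per enzyme gene (x axis, withdrawn minus supplied, rlog on a log2 scale; bars are 95% intervals of limma) in pathway order (y axis). Filled circles are the listed enzymes and open squares enzymes of other steps; the interval of Tpi1 alone (0.0015 to 0.18) leaves out 0, and its adjusted p is 0.931.

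The mean of the 9 members was nearly equal between the groups. It was 10.95 ± 0.073 in the supplied and 10.95 ± 0.064 in the withdrawn embryos, a difference of 0.00035. Supplied embryos 4 and 5 (10.87 and 10.88) and withdrawn embryo 3 (10.87) were lowest, and withdrawn embryo 5 (11.05) was highest, so that each group spanned nearly the whole range. RNA of a sorted fraction is a bulk measure, in which fewer cells of a type and less RNA per cell cannot be told apart.

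Some features of the libraries move with these values. Fos and Egr1, immediate early genes that are induced within minutes of a stimulus, were highest in supplied embryo 4 and withdrawn embryos 2 and 3, with Fos at 12.58, 11.70 and 12.50 against 9.81 to 10.88 in the other 7. The 8 immediate early markers summed to between 13.96 and 15.47 in supplied and between 13.74 and 15.48 in withdrawn embryos (log2 of the summed linear values). Erythroid markers (10 of 12 with a row, Hba-x highest) summed to 13.30 to 14.74 and 13.44 to 14.59, with 0 called. Markers of the somatic gonad (9 of 9 with a row) were high throughout, with Wt1 at 12.88 to 13.09, Gata4 at 11.91 to 12.25 and Foxl2 at 9.27 to 9.75. Of 11 germ cell markers 4 had a row (summed 9.86 to 10.09 and 9.80 to 10.20), and 7 others, among them Pou5f1, Ddx4 and Dazl, were not analysed here. No marker of these lists, nor of the endothelial, macrophage, muscle and neural lists, passed by limma, and their part in the values of the enzymes was not tested.

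Hexokinase phosphorylates glucose and so keeps it in the cell; Hk1 is the widespread form and Hk2 the one that growth signals and hypoxia induce. Hk1 was at 10.66, 10.60, 10.54, 10.39 and 10.47 in supplied embryos 1 to 5 and at 10.53, 10.49, 10.43, 10.57 and 10.82 in withdrawn embryos 1 to 5. Withdrawn embryo 5 stood above all others and the groups overlapped, with a change of 0.034 (SE 0.0666, limma adjusted p = 0.994). Without withdrawn embryo 5 the change of Hk1 was -0.028, and without supplied embryo 4 it was -0.00071. Hk2 was at 11.06, 11.04, 11.09, 11.23 and 11.02 in the supplied and at 10.95, 11.12, 10.99, 11.10 and 11.21 in the withdrawn embryos. Its change was -0.012 (SE 0.0546, limma adjusted p = 0.999), with the extremes, 10.95 and 11.23, in different groups. Leaving out supplied embryo 4 or withdrawn embryos 1 or 3 gave Hk2 changes of 0.024, 0.020 and 0.0088.

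Phosphofructokinase is a tetramer built from liver (Pfkl), muscle (Pfkm) and platelet (Pfkp) type subunits. Pfkl was at 11.56, 11.50, 11.52, 11.41 and 11.38 in the supplied and at 11.35, 11.51, 11.42, 11.45 and 11.50 in the withdrawn embryos. The highest and lowest withdrawn embryos (11.51 and 11.35) spanned most of the supplied values (change -0.024, SE 0.0475, limma adjusted p = 0.994), and without withdrawn embryo 1 the change was 0.00020. Pfkm was at 10.33, 10.40, 10.41, 10.36 and 10.51 in the supplied and at 10.46, 10.47, 10.55, 10.47 and 10.48 in the withdrawn embryos. Supplied embryo 5 alone of its group reached the withdrawn values, and the change was 0.085 (SE 0.0433, 95% interval -0.0070 to 0.18, limma adjusted p = 0.947). Pfkp was at 7.23, 7.41, 7.35, 7.23 and 7.18 in the supplied and at 7.36, 7.16, 7.14, 7.11 and 7.25 in the withdrawn embryos. Withdrawn embryo 1 lay among the higher supplied embryos and withdrawn embryos 2, 3 and 4 lay below the whole supplied group, a change of -0.077 (SE 0.0546, 95% interval -0.19 to 0.039, limma adjusted p = 0.975). As the most weakly expressed member, Pfkp is the one whose changes rlog shrinks most. Its change was -0.043 without supplied embryo 2, -0.12 without withdrawn embryo 1, and -0.038 with the embryos that share a title number averaged.

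Isoform balance within a step was compared inside each embryo, which needs no gene length. Pfkm minus Pfkp was 3.12 ± 0.13 in the supplied and 3.28 ± 0.12 in the withdrawn embryos, a difference of 0.16 with a 95% interval of -0.023 to 0.34. The single values ran from 2.98 to 3.33 and from 3.10 to 3.40, so the groups overlapped. For Pfkl minus Pfkm the difference was -0.11 (95% interval -0.26 to 0.047), and for Pfkl minus Pfkp it was 0.053 (-0.12 to 0.23). Hk2 minus Hk1 was 0.55 ± 0.17 and 0.51 ± 0.10, a difference of -0.046 (-0.25 to 0.16). Ldha minus Ldhb, the balance of the muscle and heart type subunits of lactate dehydrogenase, was -0.20 ± 0.18 and -0.22 ± 0.16, a difference of -0.018 (-0.27 to 0.23). Each of the 5 intervals includes 0.

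**Figure D2:**
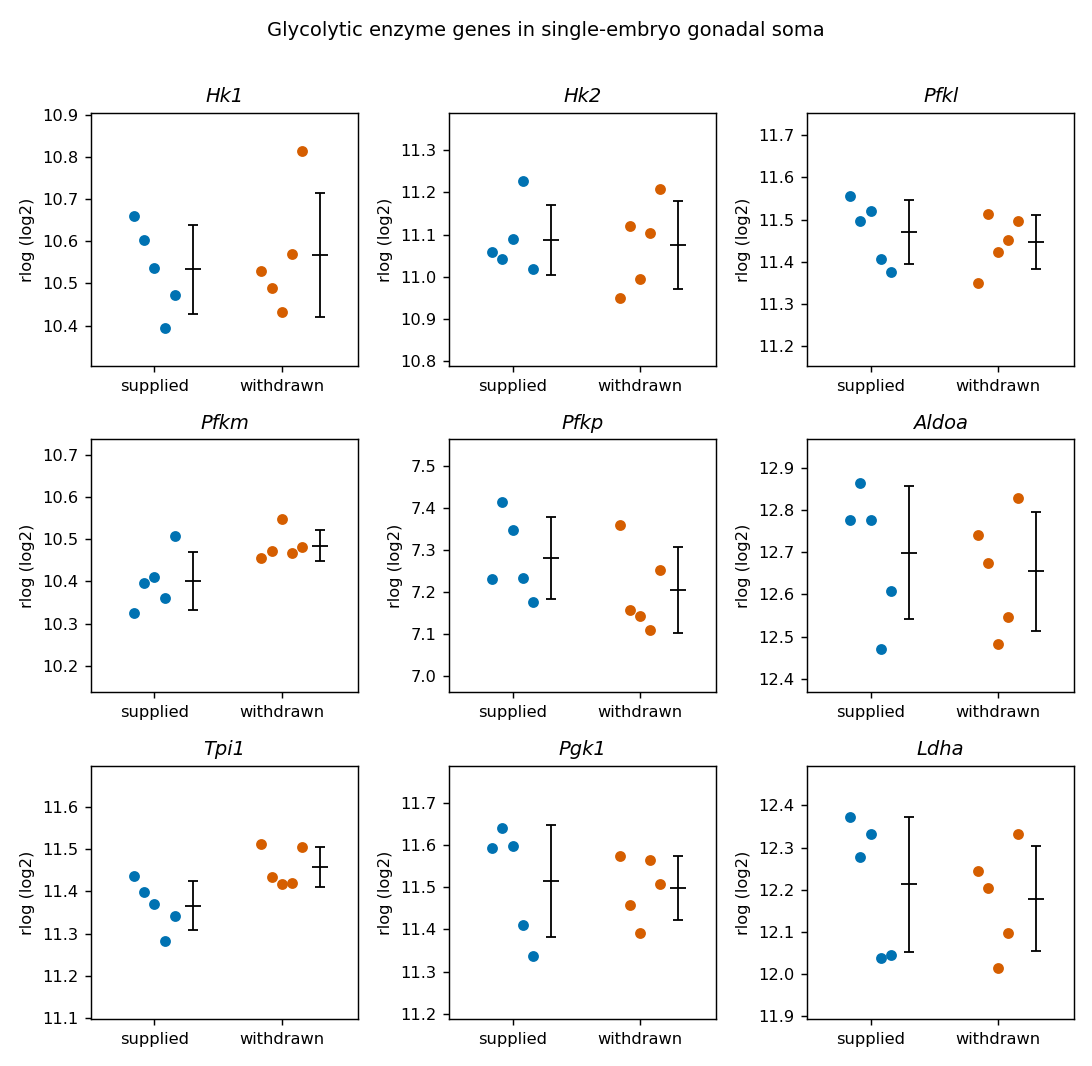
Value of each enzyme gene in every embryo (y axes, rlog on a log2 scale, each panel 0.6 units tall; points are embryos 1 to 5 from left to right, bars the mean ± SD of n = 5). Groups overlap in all 9 panels; the withdrawn embryos of Tpi1 start at 11.42, under the highest supplied embryo at 11.44.

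Of the later enzymes, Aldoa cleaves fructose bisphosphate into a pair of triose phosphates. Aldoa was at 12.78, 12.86, 12.78, 12.47 and 12.61 in the supplied and at 12.74, 12.67, 12.48, 12.55 and 12.83 in the withdrawn embryos. Supplied embryo 4 and withdrawn embryo 3, the libraries of highest Fos, held the least Aldoa, and the change was -0.044 (SE 0.0754, limma adjusted p = 0.992). Leaving out 1 embryo in turn gave changes of Aldoa from -0.10 (supplied embryo 4 left out) to -0.00091 (withdrawn embryo 3 left out), with -0.0024 when supplied embryo 2 was dropped. Whether what raises Fos there bears on Aldoa was not tested.

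Tpi1 interconverts the triose phosphates, so that both can pass down the pathway. It was at 11.44, 11.40, 11.37, 11.28 and 11.34 in the supplied and at 11.51, 11.44, 11.42, 11.42 and 11.50 in the withdrawn embryos. Supplied embryo 1 was the only supplied embryo that reached the withdrawn range. The change of 0.092 (SE 0.0427, 95% interval 0.0015 to 0.18), or 1.07-fold, had an unadjusted limma p of 0.0467 and an adjusted p of 0.931, rank 678 of all genes. Over 23 other settings it ranged from 0.071 to 0.109, and the unadjusted p was under 0.05 in 9 of them. Spsb2 lies opposite Tpi1 and shares 34 exon bases with it in the GENCODE annotation. Spsb2, at 5.59 ± 0.066 and 5.66 ± 0.064, had a change of 0.070 (limma adjusted p = 0.947), and reads of the shared bases cannot be assigned without strand.

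Pgk1, an X-linked gene, makes the first ATP that the pathway earns back. It was at 11.59, 11.64, 11.60, 11.41 and 11.34 in the supplied and at 11.57, 11.46, 11.39, 11.56 and 11.51 in the withdrawn embryos. Supplied embryos 4 and 5 sat apart from the other 3 of their group, and the change was -0.017 (SE 0.0595, limma adjusted p = 0.998). Its sign turned without supplied embryos 1, 2 or 3 (0.0028, 0.014 and 0.0038) or withdrawn embryo 3 (0.010).

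Ldha returns the NAD that glycolysis consumes by reducing pyruvate to lactate. Ldha was at 12.37, 12.28, 12.33, 12.04 and 12.05 in the supplied and at 12.25, 12.20, 12.01, 12.10 and 12.33 in the withdrawn embryos. Its low values again fell to supplied embryos 4 and 5 and withdrawn embryo 3, and the change was -0.035 (SE 0.0726, limma adjusted p = 0.995). Without supplied embryo 1 or withdrawn embryo 3 it was 0.0056 and 0.0065.

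Enzymes of the steps between the listed ones had changes of similar size. The change was 0.0023 for Gpi1, the isomerase after hexokinase, 0.023 for Gapdh, which makes the NADH of the pathway, and -0.021 for Pgam1, the mutase. It was 0.033 for Pkm2, the gene of the muscle pyruvate kinases now named Pkm, and -0.016 for Ldhb. Of 14 tested members in the list of other glycolytic enzymes 0 passed by limma, and 0 had an unadjusted p under 0.05, with a median change of -0.0026. Among all genes 0.0221% passed and 5.30% had an unadjusted limma p under 0.05. Adpgk, a kinase that phosphorylates glucose with ADP, had a change of -0.053 (limma adjusted p = 0.991).

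Embryos differed more in some members than in most genes. The SD around the group means was 0.150 for Aldoa, 0.144 for Ldha and 0.128 for Hk1, at percentiles 96.2, 95.4 and 92.8 of all genes, whose median was 0.0730. Pgk1 (0.109), Pfkp (0.0996) and Hk2 (0.0941) were at percentiles 85.8, 80.3 and 75.7. Pfkl was near the middle at 46.9, while Pfkm (0.0551) and Tpi1 (0.0529) were among the steadier genes, at percentiles 23.6 and 20.8. These percentiles were not matched for level. Because rlog narrows the spread of weakly expressed genes, strongly expressed ones may rank higher, which was not tested.

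Aldoa, Tpi1, Pgk1 and Ldha, the enzymes after phosphofructokinase, had higher correlations among themselves over the 10 embryos than with Hk2 or Pfkm. Pearson's r over the 10 embryos was above 0 in all 6 of their pairs and above 0.5 in 5, from 0.41 to 0.92. Hk1, Pfkl and Pfkp also had an r above 0.5 with most of these enzymes. With Aldoa, Tpi1, Pgk1 and Ldha in turn, r was 0.74, 0.64, 0.53 and 0.75 for Hk1. For Pfkl r was 0.53, 0.13, 0.51 and 0.68, and for Pfkp 0.72, 0.13, 0.63 and 0.60. The later enzymes were thus not set apart from Hk1, Pfkl and Pfkp. The closest pair was Aldoa with Ldha (r = 0.917, permutation p = 0.00061, adjusted p = 0.0220 over 36 pairs of members; Spearman's rho = 0.867, permutation p = 0.0022, adjusted p = 0.0396). Without the 2 embryos farthest from the median of Aldoa r was 0.854, and without the 3 libraries of highest Fos it was 0.853. Pgk1 with Ldha followed at r = 0.771 (permutation p = 0.0135, adjusted p = 0.122) and rho = 0.745 (permutation p = 0.0176, adjusted p = 0.129). Without the 2 embryos farthest from the median of Pgk1 the r of this pair was 0.601. All p-values of these correlations are two-sided and rest on 100000 resamples. Of the 36 pairs of members only 1, Aldoa with Ldha, had an adjusted permutation p under 0.05 by r. With the group means removed all 6 pairs were above 0.5, from 0.65 to 0.92, and without the 3 libraries of highest Fos 3 of the 6 were, from 0.31 to 0.85. Values of a library share its depth, composition and scaling, so these correlations are not free of what the libraries have in common.

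Hk2 and Pfkm had lower correlations with the other members. Over the 8 pairs of Hk2 with the other members r lay between -0.29 and 0.34, and over those of Pfkm between -0.53 and 0.27, with 0 above 0.5 in either. Such a count is near the background, since 8.07% of all other genes had an r above 0.5 with Hk2 and 7.56% with Pfkm. For Hk2 the count also depended on the embryos used. Without the 3 libraries of highest Fos 2 of its 8 pairs were above 0.5 (Hk1 at 0.77 and Pfkl at 0.59). Leaving out the 2 embryos farthest from the median of 1 gene of each pair, the earlier in the opening list, left 1 (Pfkl at 0.73). Pfkm then had 0 pairs above 0.5 in either case, and 3 and 5 of its 8 pairs were below -0.5, the lowest at -0.72 with Pfkl and -0.93 with Hk1, against 1 over all 10 embryos. Hk1 had r above 0.5 with 5 of the 8 other members, among them Ldha, and with 10.5% of all other genes. For Hk1 with Ldha r was 0.748 (permutation p = 0.00776, adjusted p = 0.122) and rho 0.879 (permutation p = 0.00179, adjusted p = 0.0396). Without the 2 embryos farthest from the median of Hk1 the r of this pair was 0.753. Counted over all 36 pairs, 16 were above 0.5 and 1 below -0.5. For comparison, 14.5% of all other genes had an r above 0.5 with Aldoa, 14.4% with Ldha and 16.4% with Pgk1, while 6, 6 and 5 of the 8 other members did. For Tpi1, Pfkl and Pfkp the shares were 9.38%, 8.16% and 14.6%, beside 3, 4 and 3 of the 8 other members. Enzymes of the steps between also correlated with the later members, with 15 of 16 pairs of Gpi1, Gapdh, Pgam1 or Pkm2 with Aldoa, Tpi1, Pgk1 or Ldha above 0.5 (0.40 to 0.95), given as a description.

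**Figure D3:**
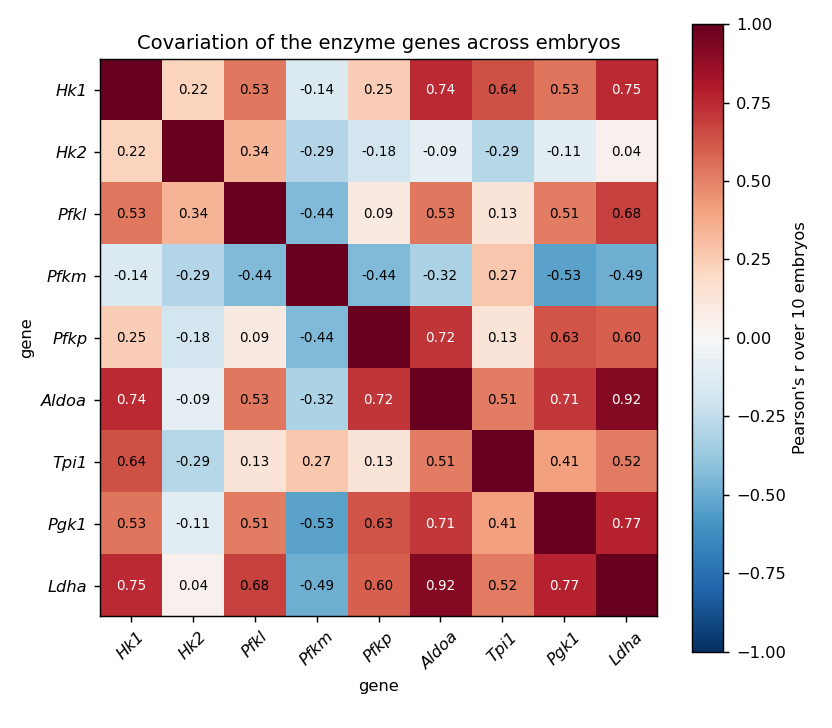
Pearson's r over the 10 embryos for each pair of enzyme genes (both axes, colour scale from -1 to 1). Aldoa with Ldha is the highest at 0.92, and the rows of Hk2 and Pfkm hold no value above 0.34 off the diagonal.

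**Figure D4:**
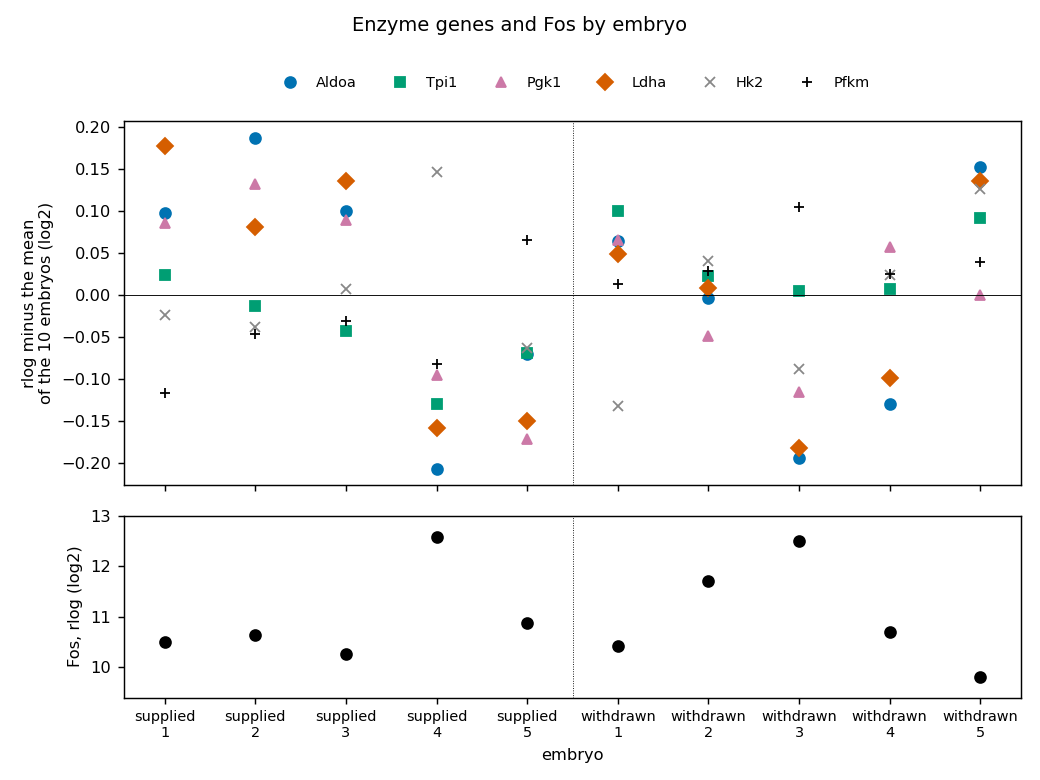
Upper panel, 6 enzyme genes in each embryo as rlog minus the mean of the 10 embryos (log2); lower panel, Fos (rlog, log2), with supplied embryos left and withdrawn embryos right of the dotted line. Aldoa and Ldha are low in supplied embryos 4 and 5 and withdrawn embryos 3 and 4, of which supplied embryo 4 and withdrawn embryo 3 hold the highest Fos, at 12.58 and 12.50.

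The low values of Aldoa, Ldha, Hk1 and Pgk1 coincided in part with high Fos. Over the 3 libraries of highest Fos the means were 12.54 for Aldoa, 12.09 for Ldha, 10.44 for Hk1 and 11.42 for Pgk1. Over the other 7 they were 12.73, 12.24, 10.60 and 11.54. This was not particular to these genes. Ldhb, Gpi1, Gapdh, Pgam1 and Pkm2 were also lower there, at 12.26, 12.13, 12.59, 12.23 and 13.73 against 12.47, 12.27, 12.70, 12.34 and 13.82. The means of Hk2 and Pfkm were slightly higher there, at 11.11 and 10.46 against 11.07 and 10.44, with ranges that overlapped almost fully. Hk2 ran from 10.99 to 11.23 against 10.95 to 11.21, and Pfkm from 10.36 to 10.55 against 10.33 to 10.51. Supplied embryo 5 was as low in Ldha (12.05) and lower in Pgk1 (11.34), with Fos at 10.88, the highest of the other 7. Withdrawn embryo 2, with Fos at 11.70, ranked 5 from the lowest in both Aldoa and Ldha. These sets of libraries were formed from the data, so the values are given with no test.

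Levels of different genes can be set side by side only per length, here as the mean rlog minus log2 of the kilobases of exon in the GENCODE annotation. Among the 9 members Aldoa was highest on this scale (11.14), followed by Ldha (10.47), Pgk1 (10.34) and Tpi1 (9.95). Pfkl (8.72), Pfkm (8.70), Hk2 (8.50) and Hk1 (7.46) came next, and Pfkp (3.50) was far below. Of the enzymes of other steps, Ldhb (11.76), Pkm2 (11.47) and Pgam1 (11.32) lay above Aldoa, Gapdh (10.62) between Aldoa and Ldha, and Gpi1 (9.54) between Tpi1 and Pfkl. Aldoa exceeded Ldha in 10 of 10 embryos, by 0.67 ± 0.057. Neighbours that did not differ beyond their spread were Pfkl and Pfkm (0.017 ± 0.12, Pfkl higher in 6 of 10 embryos). Ldha exceeded Pgk1 in 9 of 10 embryos (0.13 ± 0.087) and Pfkm exceeded Hk2 in 9 of 10 (0.20 ± 0.13). With the longest transcript as the length, Tpi1 (10.73) came before Pgk1 (10.64) and Pfkl led Pfkm in 10 of 10 embryos. The other ranks among the members were kept. Places of the other steps moved: Aldoa (12.05) then lay above Ldhb (12.03) and Pgam1 (11.48), and Gapdh (10.95) below Ldha (11.34). Both lengths are of annotated exons (4.13 and 3.29 kb for Gapdh), and which transcripts these cells use was not measured. Among the members, Aldoa, Ldha, Pgk1 and Tpi1 thus lay above the isoforms of hexokinase and phosphofructokinase under both lengths.

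Glucose enters and lactate leaves the cell through the carriers Slc2a1, Slc2a3 and Slc16a3, which had changes of 0.028, -0.027 and 0.0089. Of 13 transport genes tested 0 passed by limma, and the median change was -0.0062. At an unadjusted p under 0.05 there was 1 gene, lower, against 5.30% of all genes in either direction. That gene was Slc2a5, a weakly expressed fructose carrier, at 6.18 ± 0.023 and 6.12 ± 0.021 (change -0.060, limma adjusted p = 0.931). Its groups did not overlap, as in 0.810% of all genes. Slc2a10 was next in p with a change of 0.037 (limma adjusted p = 0.989).

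Of 21 regulators of glycolysis and of pyruvate entry 0 passed by limma, and 1, Pcx, was lower at an unadjusted p under 0.05. Among all genes 5.30% were under that p in either direction. Pcx encodes pyruvate carboxylase, which feeds pyruvate into oxaloacetate. It was at 9.25, 9.46, 9.35, 9.30 and 9.27 in the supplied and at 9.20, 9.12, 9.19, 9.17 and 9.23 in the withdrawn embryos. Each withdrawn embryo lay below each supplied one, a change of -0.14 (SE 0.0473, 95% interval -0.24 to -0.043, limma adjusted p = 0.900). In 0.810% of all genes the groups likewise did not overlap. Pdp1, a phosphatase that switches pyruvate dehydrogenase on, had a change of -0.089 (limma adjusted p = 0.947), and Pdk1, a kinase that switches it off, one of -0.010.

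The pentose phosphate pathway, which branches off at glucose 6-phosphate, had 8 tested genes, of which 0 passed by limma and 0 had an unadjusted p under 0.05 (median -0.013). The changes of Pgls and Tkt, the smallest in p, were -0.071 and 0.058. Among 23 genes of the glycogen, hexosamine, serine and glycerol branches 0 passed by limma and 0 had an unadjusted p under 0.05, with a median of -0.017. Beside both lists, 0.0221% of all genes passed and 5.30% had an unadjusted limma p under 0.05. Gpd2, the mitochondrial glycerol phosphate dehydrogenase, had a change of -0.099 and the glycogen phosphorylase Pygb one of 0.083 (limma adjusted p = 0.931 and 0.956).

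Of 12 transcription factors that act on glycolytic genes 0 passed by limma, with 1 higher and 1 lower at an unadjusted p under 0.05. The share of all genes under that p was 5.30% in either direction. Hif1a had a change of -0.044 and Myc one of 0.017. Epas1, which encodes HIF-2 alpha, was at 10.31, 11.08, 10.58, 10.41 and 10.10 in the supplied and at 10.03, 10.18, 10.24, 10.25 and 10.21 in the withdrawn embryos. Supplied embryo 2 stood highest, supplied embryo 5 lay inside the withdrawn range, and the change was -0.32 (SE 0.123, limma adjusted p = 0.922). Without supplied embryo 2 the change of Epas1 was -0.17. Arnt, the partner of both HIF subunits, had a change of 0.084 (SE 0.0395, limma adjusted p = 0.931).

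Reads of several members can be shared with other loci. RefSeq names 19 copies of member genes, mostly pseudogenes, of which 2 have a row here and 17 were not analysed here. Aldoart1, a retrogene of aldolase, was at 4.31 ± 0.024 and 4.27 ± 0.024 (change -0.043, limma adjusted p = 0.928). Gm5506, now Eno1b, a retrogene of Eno1, was at 6.45 ± 0.067 and 6.42 ± 0.035 (change -0.025, limma adjusted p = 0.992), and its value does not stand for Eno1. No source used here states how reads shared with copies were counted, so the values of Aldoa, Tpi1, Pgk1 and Ldha carry that uncertainty. Senp1 overlaps Pfkm on the opposite strand by 18 exon bases (change 0.083, limma adjusted p = 0.961). Pitrm1 overlaps Pfkp on the opposite strand by 748 exon bases, 5.58% of those of Pfkp (change 0.012, limma adjusted p = 0.999). Pitrm1 stood at 11.61 in the supplied and 11.62 in the withdrawn embryos, far above Pfkp at 7.28 and 7.20. Reads of shared bases cannot be assigned without strand, so the level, change, isoform balances and correlations of Pfkp carry that uncertainty.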

How the data were processed

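Libraries were made with a SMARTer pico kit for total RNA from 2 ng of RNA of the sorted Oct4- soma, per the labels. The authors deposited log2-scale rlog values, 1 column per embryo, and all 10 columns matched a sample title. The submitters' processing notes name the mm9 genome build and list DESeq2 (1.20.1), TopHat2 (2.1.1) and Trim Galore (0.4.0). Annotation and use of strand are not given in the sources used here.

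The table held 13578 genes, with sample medians of 9.12 to 9.14. Genes with a mean of at least 3 were tested, which kept all of them. Across all genes, limma 3.58.1 in R 4.3.3 compared the groups with a variance trend, no covariate and Benjamini-Hochberg adjustment at 0.05, and was tested on simulated data. The members and gene lists were chosen with earlier results of these data known. Every member was named, as were the 2 genes of smallest p in each of 6 lists, a fixed set of pathway genes, and overlapping genes or copies with a row; 1 gene so chosen is not reported here. The labels do not say whether embryos sharing a title number (2 and 3 of each group) are litter mates, and p-values measure only how these samples spread, which may be technical in part. Alternatives were other filters, variance settings, scalings, weights, covariates, a replicate block, averaged title numbers and leaving out each embryo; leaving out the 3 libraries of highest Fos was added after seeing the data. GENCODE M21 and RefSeq (GRCm38) served for lengths, overlaps and promoters only.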

Additional observations from a re-analysis of the deposited data

Results flagged for a closer look

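A wide gap between 1 embryo and the rest of its group was found in 5 of 86 groups of 5 values examined, where chance flags about 1 in 20. Pfkm was highest in withdrawn embryo 3, at 10.55, against 10.46 to 10.48 in the other 4 withdrawn embryos. Slc16a3 was highest in withdrawn embryo 5, at 9.01, where the next was at 8.96. Arnt was highest of the supplied group in supplied embryo 1, at 11.52, with the next at 11.43. Aldoart1 was highest in withdrawn embryo 5, at 4.31 against 4.26 for the next. Spsb2 was highest of the supplied group in supplied embryo 5, at 5.71 against 5.59.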

How the results depend on the processing

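In 23 other settings 0 members passed by limma, as in the reported fit, and the lowest adjusted p of a member was 0.782. Among the members, 188 of 207 recomputed changes kept their sign and 19 did not. Under the other filters, the other variance settings and the replicate block the estimated change of a member stays as it was. Those signs were fixed in advance, so the count of kept signs overstates how stable they are. With the replicate block 0 members passed, and the lowest unadjusted p was 0.0592. Deviations of same-numbered embryos from their group means correlated between -0.36 and 0.17, and 1 of 10 embryos correlated best with its own number. Whether the numbers pair the embryos cannot be settled this way, since a pairing need not show in correlations over all genes. With embryos sharing a title number averaged, the change was 0.0058 for Aldoa, 0.028 for Pgk1, 0.0056 for Ldha, 0.00089 for Pgam1, 0.056 for Ldhb and 0.0080 for Slc2a3. Without the 3 libraries of highest Fos, a setting chosen after seeing the data, it was 0.035 for Hk2, 0.0067 for Pgk1, 0.031 for Ldhb, 0.012 for Slc2a3 and -0.0019 for Pitrm1. The change of Hk2 was 0.0017 with sample weights and 0.047 with the germ cell covariate. With quantile normalization the change was -0.0012 for Gapdh, -0.024 for Gpi1 and -0.0023 for Pitrm1, and with sample weights -0.0024 for Gpi1. Leaving out each embryo in turn gave ranges across 0 for Hk1 (-0.028 to 0.068), Hk2 (-0.045 to 0.024), Pfkl (-0.048 to 0.00020), Pgk1 (-0.061 to 0.014), Ldha (-0.078 to 0.0065), Gapdh (-0.0078 to 0.062), Gpi1 (-0.031 to 0.048), Ldhb (-0.061 to 0.058), Myc (-0.0057 to 0.042), Pdk1 (-0.042 to 0.020), Pgam1 (-0.054 to 0.011), Pitrm1 (-0.0089 to 0.044), Slc16a3 (-0.014 to 0.037), Slc2a1 (-0.015 to 0.061) and Slc2a3 (-0.066 to 0.0037). The cause of these turns was not tested. The median change of the members ranged from -0.048 to 0.0088 over all settings, and each of the 5 isoform balances moved by less than the SD between embryos. Over all genes 3 passed in the reported fit and between 0 and 12 in the others, 0 without supplied embryo 1 or withdrawn embryo 5 and 12 with the immediate early covariate.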
